A study of Mus musculus with 4 samples.

Results

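The 37 genes described here encode aminoacyl-tRNA synthetases, the enzymes that load amino acids onto transfer RNAs. They were taken by symbol from a table of 29190 genes with read counts in mouse kidney, and all 37 passed the filter on low counts that left 17419 genes for testing. The set holds 21 cytosolic and 16 mitochondrial synthetases. Tarsl2 was counted as cytosolic although its symbol ends in 2, because its product is not the mitochondrial threonyl enzyme.

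Kidneys came from 8-week-old male C57 mice, with no genetic change named in the labels. Animals received physiological saline or cisplatin, a platinum drug that damages DNA and is toxic to kidney tubules, at 30 mg/kg. The protocol divided 18 mice into 3 groups, and cisplatin animals were killed after 24 h or after 48 h. The labels do not say from which of these times the sequenced cisplatin kidneys come, or whether tissue was pooled. Total RNA was depleted of ribosomal RNA and sequenced, with 2 libraries per group that the submitters call biological replicates. Nothing further says that each library came from its own animal, so the p-values measure the spread between these libraries.

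A synthetase joins an amino acid to the transfer RNAs that carry it, and the charged transfer RNAs then feed the ribosome. Cytosol and mitochondria use largely separate sets of synthetases, all encoded in the nucleus, and the mitochondrial enzymes serve the ribosomes that make the respiratory chain subunits encoded in mitochondrial DNA. Many cytosolic synthetase genes are known targets of ATF4, a transcription factor of the response to amino acid shortage and endoplasmic reticulum stress, and tubule cells of the kidney are rich in mitochondria.

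Libraries held 20662475 and 23150274 counts after cisplatin and 21483564 and 27122403 in saline. The smallest member count in any library was 94 and the largest 5906, and PCR reads without molecular identifiers are not independent molecules, so counting error is a lower limit. Log2 levels correlated at 0.992 or more within groups and at 0.894 or less between them. Proximal tubule markers were abundant in sum in every library and fell after cisplatin, with all 13 called lower. Their summed level was 52220 to 53870 CPM (counts scaled to a common library total) in saline and 19540 to 20170 after cisplatin. Kap took a large part of these sums (25840 and 23590 CPM in saline, 14780 and 14240 after cisplatin). It fell least of the 13, with a log2 fold change of -0.77 against a list median of -2.43. All 8 thick limb and distal tubule markers were called lower as well. Of 8 collecting duct markers 5 were called lower and 2 higher. Across all tested genes 36.4% were called lower and 37.2% higher. Summed macrophage and monocyte markers (10 genes) were at 101 to 111 CPM in saline and 273 to 287 after cisplatin. In that list 8 genes were called higher and Csf1r lower (-0.28), Ccr2 was not called, and Cd68 took a large part of the rise (1.68 and 1.56 CPM in saline, 63.4 and 76.0 CPM after cisplatin). Summed fibroblast and mural cell markers (8 genes) were at 462 to 477 and 1498 to 1499 CPM. Of 10 neutrophil markers, summed at 2.99 to 4.28 CPM in saline and 34.1 to 37.1 after cisplatin, Ly6g, Ngp and Camp were at 0 in both saline libraries. The part of these marker changes in the results below was not tested, and in whole kidney fewer cells of a type and less RNA per cell cannot be told apart.

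Some synthetase promoters carry a short sequence that is shown first, since ATF4 is known to act through it. The C/EBP-ATF response element has the core TGATGNAA, searched on both strands from 250 bases before to 50 after each annotated start (RefSeq, GRCm38.p6). Promoters were in the table for 28 members, 14 of each compartment. The core was found in 5 of 14 cytosolic members (35.7%), in 0 of 14 mitochondrial members, and in 3.97% of all 32851 promoters. The match nearest the start of each of the 5 genes is printed below as 30 bases read 5′ to 3′ along the gene's strand, with the core or its complement in capitals.
Aars, chr8:111033840-111033869, plus strand: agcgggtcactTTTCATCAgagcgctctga
Gars, chr6:55037960-55037989, plus strand: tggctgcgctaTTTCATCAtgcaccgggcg
Iars, chr13:49682126-49682155, plus strand: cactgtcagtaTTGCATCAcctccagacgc
Tars, chr15:11399655-11399684, minus strand: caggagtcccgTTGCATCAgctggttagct
Yars, chr4:129189895-129189924, plus strand: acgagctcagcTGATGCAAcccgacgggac

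In 4 of these 5 matches the core lay on the opposite strand to the gene, and in 3 its letters were TTGCATCA or the complement. The first base of the match stood 30 bases before the start in Gars and 15 before it in Tars, and at positions 10, 8 and 4 after it in Aars, Iars and Yars. Among 24 ATF4 and amino acid response genes with a promoter in the table, 8 (33.3%) held the core. A second motif, the site of the respiratory factor NRF1 (GCGCA, any base, then GCGC), was found in 3 of 14 cytosolic members (Farsb, Kars and Tars), in 2 of 14 mitochondrial members (Iars2 and Mars2) and in 4.60% of all promoters, and no match overlapped one of the first motif. A match describes letters in these windows and shows no binding.

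After cisplatin, mitochondrial synthetase transcripts were mostly lower and cytosolic ones were divided. Of the 16 mitochondrial members, 11 fell, 1 rose and 4 were not called, with a median log2 fold change of -0.62. Of the 21 cytosolic members, 10 rose, 5 fell and 6 were not called, with a median of 0.12. Across all 17419 tested genes 73.6% were called, 37.2% higher and 36.4% lower, with a median of 0.04. Calls use edgeR's quasi-likelihood test with Benjamini-Hochberg adjustment at 0.05, and levels are CPM scaled by the trimmed mean of M values (TMM).

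The share of members called, 73.0%, was close to that background, so the count of changed synthetases is no result about the set. Among the mitochondrial members 68.8% were called lower, against 36.4% of all genes. Of the cytosolic members 47.6% were called higher, against 37.2%. The groups did not overlap in 33 members (89.2%), including all 16 mitochondrial ones, and the same held for 86.3% of all tested genes. With scaling by library size alone the median of all genes moved to 0.41, and the calls were 16 higher and 3 lower among cytosolic members and 2 higher and 8 lower among mitochondrial ones (9110 higher and 4207 lower over all genes). A change of scaling moves all log2 fold changes by nearly the same amount. The cytosolic median minus the mitochondrial one, 0.74 under each of the 4 scalings tried, was therefore bound to hold. Over all fits with the grouping unchanged it ran from 0.61 to 0.78.

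**Figure D1:**
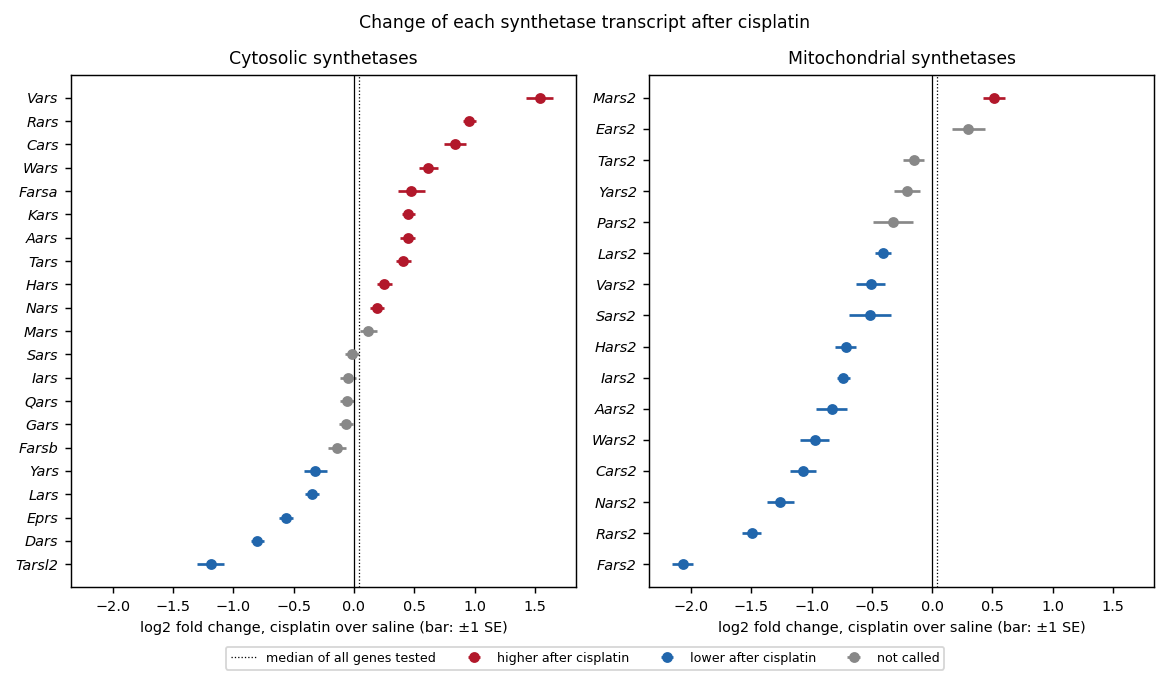
Log2 fold change of each synthetase transcript, cisplatin over saline (x axis; bars are 1 SE), with cytosolic members on the left and mitochondrial members on the right, coloured by call. Of 16 mitochondrial members 14 lie below 0 and 2 above, while the cytosolic members run from -1.19 (Tarsl2) to 1.54 (Vars); 10 members with negative values here lie above 0 with scaling by library size alone.

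Vars, the cytosolic valyl enzyme (ENSMUSG00000007029.14, GRCm38 chromosome 17, 35000987 to 35016322, plus strand), had the widest rise. It was at 30.0 and 34.6 CPM after cisplatin and at 9.79 and 12.3 CPM in saline. Both cisplatin libraries lay well above both saline libraries, a 2.91-fold rise (log2 fold change 1.54, SE 0.11, edgeR adjusted p = 2.39e-10). Vars was the sole member that rose by 2-fold or more, which 19.2% of all genes did.

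Rars (chromosome 11, 35808381 to 35834506, minus strand) encodes the arginyl enzyme, a member of the multisynthetase complex. Its level was 118 and 121 CPM after cisplatin against 61.4 and 61.5 CPM in saline. The replicates lay close together in each group, and the rise was 1.94-fold (log2 fold change 0.96, SE 0.05, edgeR adjusted p = 3.62e-12). Cars (chromosome 7, 143557230 to 143600090, minus strand), which charges cysteine, was at 31.3 and 32.4 CPM against 18.3 and 17.3 CPM. Its log2 fold change was 0.84 (SE 0.09, edgeR adjusted p = 8.00e-08). Wars, the tryptophanyl enzyme and a known interferon-induced gene, was at 43.4 and 43.1 CPM after cisplatin and 29.3 and 27.2 CPM in saline. The groups were apart for each of these genes, and for Wars the log2 fold change was 0.62 (SE 0.08, edgeR adjusted p = 6.97e-07).

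The other 6 cytosolic members that rose did so by less. Aars, the alanyl enzyme, was at 135 and 145 CPM after cisplatin and 107 and 99.2 CPM in saline (log2 fold change 0.45). Kars, which charges lysine in both compartments, was at 94.6 and 95.9 against 70.8 and 68.7 CPM, also a log2 fold change of 0.45. Tars, the main cytosolic threonyl enzyme, was at 69.3 and 70.0 against 51.6 and 53.1 CPM (0.41). The groups did not overlap in any of the 6, which held for 86.3% of all tested genes as well.
Farsa, the alpha subunit of the phenylalanyl enzyme, was at 16.5 and 18.9 against 12.3 and 13.1 CPM (0.48). Hars, the histidyl enzyme, was at 62.3 and 62.2 against 52.3 and 52.2 CPM (0.25). Nars, the asparaginyl enzyme, was at 144 and 143 against 123 and 128 CPM (0.19). The call for Nars was lost without the first saline library (0.15, edgeR adjusted p = 0.0725).

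Among the 5 cytosolic members that fell, Tarsl2 (chromosome 7, 65644898 to 65692091, plus strand), a second cytosolic threonyl enzyme, fell furthest. It was at 9.53 and 11.4 CPM after cisplatin and at 23.2 and 24.5 CPM in saline. Both cisplatin libraries were below both saline libraries (log2 fold change -1.19, SE 0.11, edgeR adjusted p = 7.88e-09). The ratio of Tars to Tarsl2, in the authors' FPKM (fragment counts scaled by transcript length and library size), was 8.79 and 7.44 after cisplatin and 2.70 and 2.62 in saline.
Dars (chromosome 1, 128363707 to 128417368, minus strand), the cytosolic aspartyl enzyme, was at 76.1 and 72.9 CPM against 126.5 and 132.8 CPM. It fell by 0.80 on the log2 scale (SE 0.06, edgeR adjusted p = 1.27e-10). Eprs, a fused enzyme for glutamate and proline, was at 120.1 and 113.4 CPM against 165.8 and 179.2 CPM. It fell by 0.56 (SE 0.06, edgeR adjusted p = 7.40e-08), but was not called on FPKM with a pseudocount of 0.1 (-0.29, limma adjusted p = 0.123).
Lars, the leucyl enzyme, was at 60.0 and 59.3 against 76.5 and 75.4 CPM, a log2 fold change of -0.35 that was 0.018 with scaling by library size alone. Yars, the tyrosyl enzyme, was at 22.9 and 27.6 against 32.9 and 30.3 CPM, a log2 fold change of -0.32 that was 0.046 with library size alone. Without the first cisplatin library Yars was not called (-0.19, edgeR adjusted p = 0.134).

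The 6 cytosolic members that were not called had log2 fold changes from -0.14 (Farsb) to 0.12 (Mars). Farsb, the beta subunit of the phenylalanyl enzyme, was at 50.5 and 46.6 CPM against 56.4 and 50.9 CPM, so the groups were apart by a narrow margin. Its partner Farsa rose, and the FPKM ratio of Farsa to Farsb was 0.392 and 0.489 after cisplatin and 0.262 and 0.311 in saline. Without the second saline library Farsb was called lower (-0.22, edgeR adjusted p = 0.0129). Gars, which charges glycine in both compartments, was at 78.4 and 73.4 against 82.6 and 76.2 CPM. Sars, the seryl enzyme, was at 110.3 and 114.9 against 111.5 and 116.3 CPM. For both genes the libraries of each group were mixed in rank.
Qars, the glutaminyl enzyme, Iars, the isoleucyl enzyme, and Mars, the methionyl enzyme, had log2 fold changes of -0.06, -0.05 and 0.12. Mars had no overlap between groups, at 40.8 and 42.9 against 39.1 and 38.1 CPM, while the groups overlapped for Qars and Iars. Mars was called higher in 6 of 16 alternatives, among them upper-quartile scaling (0.24, edgeR adjusted p = 0.00675), library size alone (0.48) and protein-coding genes alone (0.17, edgeR adjusted p = 0.0409).

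**Figure D2:**
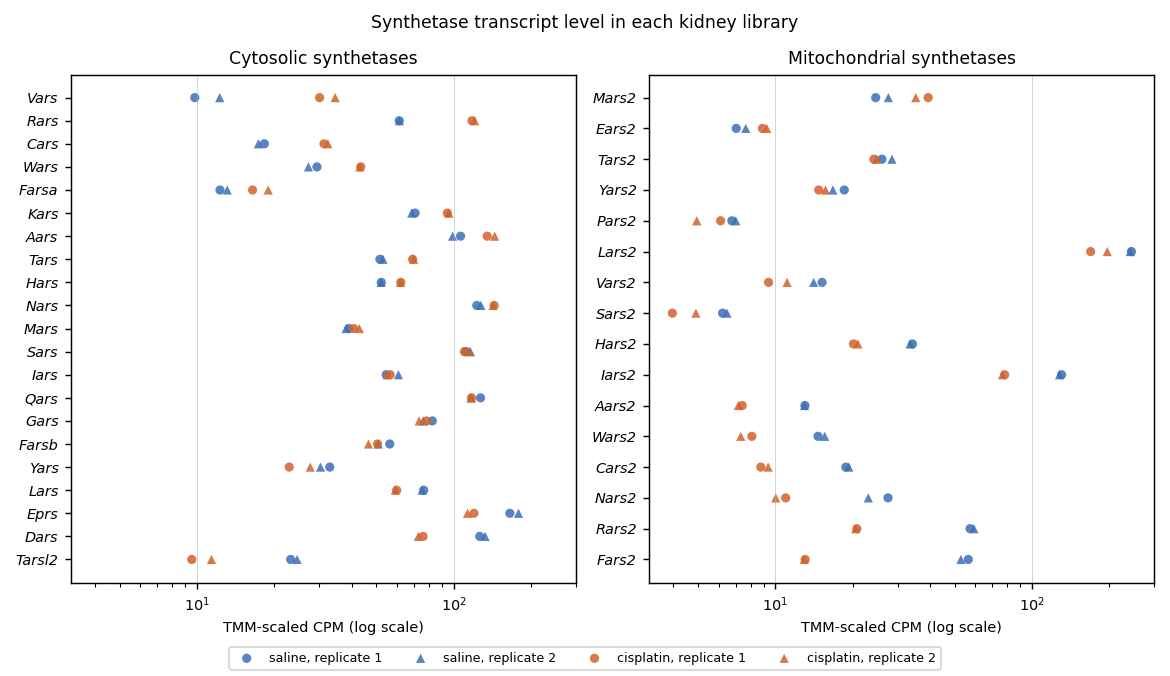
TMM-scaled CPM (x axis, log scale) of each synthetase in the 2 saline (blue) and 2 cisplatin (orange) libraries, with cytosolic members on the left and mitochondrial members on the right, ordered by log2 fold change. Blue and orange symbols are apart in all 16 mitochondrial rows and in 17 of 21 cytosolic rows. The groups were apart in 86.3% of all 17419 tested genes as well.

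Fars2 (ENSMUSG00000021420.10, chromosome 13, 36117412 to 36726280, plus strand), the mitochondrial phenylalanyl enzyme, fell more than any other member. It was at 13.1 and 13.0 CPM after cisplatin and at 56.6 and 52.9 CPM in saline. The 2 cisplatin libraries were nearly equal and far below both saline libraries, a fall of 76.2% (log2 fold change -2.07, SE 0.09, edgeR adjusted p = 2.51e-14). Rars2 (chromosome 4, 34614957 to 34660167, plus strand), the mitochondrial arginyl enzyme, was at 20.8 and 20.6 CPM against 57.4 and 59.5 CPM. It was lower by 64.6% (log2 fold change -1.50, SE 0.08, edgeR adjusted p = 5.92e-13).
Nars2, for asparagine, was at 10.97 and 10.03 CPM against 27.5 and 23.0 CPM (log2 fold change -1.26, SE 0.11). Cars2, for cysteine, was at 8.77 and 9.37 CPM against 18.8 and 19.3 CPM (-1.07, SE 0.11). These 4 genes and Tarsl2 were the 5 members that fell by 2-fold or more, which 16.1% of all genes did.

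Another 7 mitochondrial members fell by less than 2-fold. Wars2, for tryptophan, was at 8.10 and 7.33 CPM against 14.7 and 15.6 CPM, a log2 fold change of -0.97. Aars2, for alanine, was at 7.42 and 7.17 against 13.0 and 13.0 CPM (-0.83). Iars2, for isoleucine, was at 78.4 and 76.9 against 130.7 and 128.2 CPM (-0.74). Cisplatin libraries were lower without overlap for each of them.
Hars2, for histidine, was at 20.2 and 20.98 against 34.3 and 33.5 CPM (-0.72). Sars2, for serine, was at 3.96 and 4.90 against 6.22 and 6.47 CPM (-0.52, edgeR adjusted p = 0.0119). It was not called by DESeq2 (adjusted p = 0.0987) or without the first cisplatin library (-0.38, edgeR adjusted p = 0.121). Sars2 was among the lowest of the members by level. Vars2, for valine, was at 9.41 and 11.1 against 15.2 and 14.1 CPM (-0.51), and its call was lost with library size alone (-0.14, edgeR adjusted p = 0.296).

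Lars2 (chromosome 9, 123366927 to 123462666, plus strand), the mitochondrial leucyl enzyme, held the most counts of any member. It was at 170 and 197 CPM after cisplatin and at 245 and 242 CPM in saline. Its log2 fold change of -0.41 (SE 0.07, edgeR adjusted p = 1.93e-05) was -0.04 with library size alone and not called there. Lars2 took 38.2% and 42.1% of mitochondrial member counts after cisplatin and 34.9% and 34.8% in saline, so sums over the mitochondrial members lean on this gene.
Mitochondrial members gave 23.0% and 23.8% of all member counts after cisplatin and 32.9% and 32.7% in saline. Without Lars2 these shares were 15.6% and 15.3% against 24.2% and 24.0%. The gap between groups was much wider than that between replicates either way, and these shares do not depend on the scaling.

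Mars2 (chromosome 1, 55237177 to 55248470, plus strand), the mitochondrial methionyl enzyme, was the exception that rose. It was at 39.4 and 35.3 CPM after cisplatin and at 24.6 and 27.6 CPM in saline. Its groups were apart (log2 fold change 0.51, SE 0.09, edgeR adjusted p = 3.57e-05). Ears2, the mitochondrial glutamyl enzyme, was at 8.90 and 9.26 against 7.04 and 7.66 CPM and was not called (0.30, edgeR adjusted p = 0.0572). It was called higher with upper-quartile scaling (0.42, edgeR adjusted p = 0.0101) and with library size alone (0.66). Ears2 has a further role, since mitochondria have no glutaminyl synthetase and make glutamine-charged transfer RNA from the glutamate-charged form.
Pars2, for proline, was at 6.12 and 4.94 against 6.76 and 7.01 CPM, with a log2 fold change of -0.32 that was 0.043 with library size alone, and it was called lower without the first cisplatin library (-0.48, edgeR adjusted p = 0.0451). Yars2, for tyrosine, and Tars2, for threonine, had log2 fold changes of -0.21 and -0.15 that became 0.16 and 0.21 with library size alone. Neither was called, and Yars2 was called lower without the second saline library (-0.29, edgeR adjusted p = 0.0479).

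Because both members of a pair sit in the same library, the ratio of a cytosolic to a mitochondrial gene does not move with library scaling. There were 18 such pairs by amino acid, sharing some genes (Eprs pairs with Ears2 and with Pars2, Fars2 with both subunits, Tars2 with Tars and Tarsl2). In 12 pairs the FPKM ratio was higher in both cisplatin libraries than in either saline library, in 5 it was lower, and in 1 (Lars to Lars2) the groups overlapped. The median difference in log2 fold change, cytosolic minus mitochondrial, was 0.83. No test was run on these ratios. The share of other gene pairs whose ratios separate the groups was not measured. Among single genes the groups did not overlap in 86.3% of all those tested.

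Rars to Rars2 stood at 5.03 and 5.197 after cisplatin and at 0.948 and 0.917 in saline. Transcripts of the arginyl pair were thus about level per length in saline and not after cisplatin. Farsa to Fars2 was at 1.47 and 1.70 against 0.253 and 0.289. Vars to Vars2 was at 3.40 and 3.34 against 0.692 and 0.927, and Cars to Cars2 at 2.04 and 1.98 against 0.557 and 0.514. Iars to Iars2 was at 1.09 and 1.08 against 0.629 and 0.717, and Farsb to Fars2 at 3.74 and 3.47 against 0.964 and 0.929. In each of these pairs the transcript with the higher FPKM in saline was the mitochondrial one, and after cisplatin it was the cytosolic one in both libraries. Some ratios stood close to 1, so which gene was higher is less certain there. These were Rars to Rars2, Farsb to Fars2 and 1 value of Vars to Vars2 in saline, and Iars to Iars2 after cisplatin.
Wars to Wars2 was at 8.27 and 9.05 against 3.07 and 2.68, and Nars to Nars2 at 20.7 and 22.4 against 7.08 and 8.76. Here the cytosolic gene was the higher in all 4 libraries, as in 10 of the 18 pairs. Ratios that were lower after cisplatin included Eprs to Ears2 (5.63 and 5.10 against 9.84 and 9.74), Mars to Mars2 (3.95 and 4.63 against 6.07 and 5.27) and Tarsl2 to Tars2 (0.536 and 0.623 against 1.21 and 1.17). Lars to Lars2 was at 0.356 and 0.303 against 0.315 and 0.314.

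**Figure D3:**
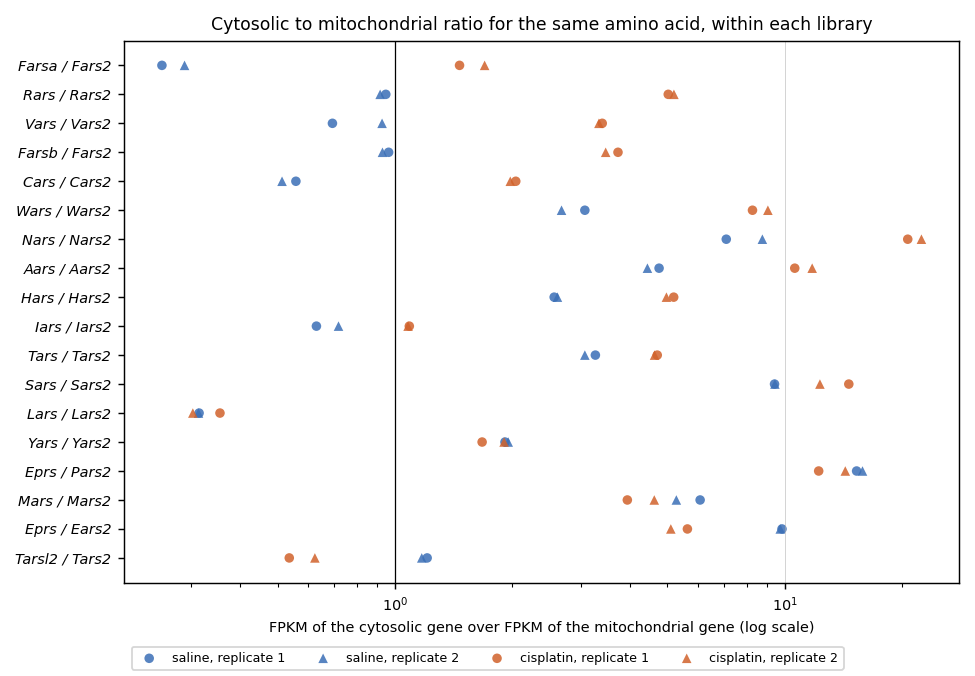
FPKM of the cytosolic gene over FPKM of the mitochondrial gene for the same amino acid (x axis, log scale; the vertical line marks 1) in each library, saline in blue and cisplatin in orange. Ratios were higher in both cisplatin libraries in 12 of 18 pairs, lower in 5 and overlapping for Lars to Lars2. Some pairs share a gene, and the same share among other gene pairs was not measured.

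Per transcript length, the saline order ran from Lars2 at 36.1 ± 2.16 FPKM (SD, n = 2) to Pars2 at 1.30 ± 0.127. Dars at 30.3 ± 3.11 and Nars at 27.5 ± 2.57 followed. The Lars2 libraries lay above those of Dars, while Dars and Nars lay within their spread of each other. Neighbours among Qars (19.2 ± 0.134), Gars (19.1 ± 0.205), Sars (18.01 ± 1.76), Rars2 (18 ± 1.67) and Kars (17.8 ± 0.827) overlapped, although Qars and Gars each lay above Kars in both libraries. The median was 11.4 FPKM for cytosolic and 3.35 FPKM for mitochondrial members in saline, and 16.5 and 3.21 FPKM after cisplatin.
The FPKM values, the medians included, were not rescaled by TMM, so only order within a group is read from them. With TMM scaling the median log2 fold change was 0.12 for cytosolic and -0.62 for mitochondrial members. After cisplatin Rars stood first at 39.2 ± 0.170 FPKM, from rank 10 in saline, with Nars next at 37.7 ± 0.728. Fars2 moved from rank 12 to 25 (14.8 ± 0.304 to 4.25 ± 0.0778 FPKM), Rars2 from 8 to 19 (18 to 7.68 ± 0.149 FPKM) and Dars from 2 to 9. Vars moved from rank 35 to 23 (1.54 ± 0.339 to 5.41 ± 0.474 FPKM).

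Sorting the members by structure gave smaller contrasts than sorting by compartment. The 8 cytosolic members of the multisynthetase complex, an assembly that holds several synthetases together, had 2 higher (Kars and Rars), 3 lower (Dars, Eprs and Lars) and 3 not called, with a median of -0.05. The 13 outside it had 8 higher, 2 lower (Tarsl2 and Yars) and a median of 0.25. Shares called higher and lower were 25.0% and 37.5% in the complex and 61.5% and 15.4% outside it. Over all tested genes these shares were 37.2% and 36.4%. Class I and class II enzymes differ in the fold of the catalytic domain. Cytosolic medians were 0.12 for 9 class I and 0.19 for 11 class II members, leaving out Eprs, which has both. Mitochondrial medians were -0.51 for 9 class I members, of which 1 rose and 6 fell, and -0.72 for 7 class II members, of which 5 fell. The shares called lower were 66.7% and 71.4%, against 36.4% of all tested genes. The difference between these groupings was not tested.

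The complex scaffold is made of Aimp1, Aimp2 and Eef1e1, of which Aimp2 and Eef1e1 rose. Aimp2 was at 16.7 and 16.7 CPM after cisplatin and at 6.71 and 8.11 CPM in saline (log2 fold change 1.16, SE 0.12, edgeR adjusted p = 6.65e-08). Eef1e1 was at 23.8 and 25.0 against 18.1 and 18.4 CPM (0.42), and Aimp1 was at 36.4 and 36.2 against 34.4 and 30.7 CPM and was not called (0.16). Aimp1 was called higher without the first saline library (0.23, edgeR adjusted p = 0.0297) and under upper-quartile (0.28) and library size scaling (0.53).
In the list of enzymes that edit charged transfer RNA, Dtd1, a D-aminoacyl-tRNA deacylase, was at 3.25 and 4.63 CPM against 16.0 and 16.7 CPM. It fell by 2.04 on the log2 scale (edgeR adjusted p = 2.68e-10), Prorsd1 was not called (0.20), and Aarsd1 was too low to test. Prorsd1 was called higher without the second cisplatin library (0.29, edgeR adjusted p = 0.0387).

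Of 14 mitochondrial translation factors and other charging genes, 11 fell, 0 rose and 3 were not called, with a median of -0.96, below that of the mitochondrial synthetases. The share called lower was 78.6%, against 36.4% of all tested genes. With upper-quartile scaling, library size alone, each FPKM fit or protein-coding genes alone, 1 rose. Gatb, a subunit of the amidotransferase that completes mitochondrial glutamine charging, was at 27.8 and 26.8 CPM after cisplatin and 90.8 and 89.3 CPM in saline (log2 fold change -1.72). The other subunit genes of that enzyme, Qrsl1 and Gatc, were not called (-0.12 and 0.19). The elongation factor Gfm1 was at 56.1 and 56.6 against 161.7 and 166.4 CPM (-1.54), and Tufm at 46.7 and 47.2 against 106.8 and 111.5 CPM (-1.22).
Cytosolic elongation factors were divided, with 2 higher and 2 lower of 5 tested. Their share called, 80.0%, was near the 73.6% of all tested genes. Eef1g (283 and 284 against 167 and 164 CPM) and Eef1b2 (202 and 200.0 against 165 and 146 CPM) rose by 0.78 and 0.37 on the log2 scale. Eef1a1, which carries charged transfer RNA to the ribosome, and Eef2 had log2 fold changes of -0.32 and -0.32, which were 0.045 and 0.044 with library size alone. Eef1d was at -0.06 and not called, and Eef1a2 was too low to test (4 and 15 counts after cisplatin, 0 and 0 in saline). In the list for maturation and export of transfer RNA, 4 of 13 rose and 6 fell, with a median of -0.19. The share called there, 76.9%, was also near that of all tested genes. Trmt10c rose by 0.98, and the exporter Xpot, at 71.7 and 69.6 against 113 and 118 CPM, fell by 0.71.

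The ATF4 list was higher for the most part. Of 24 tested genes (26 listed), 17 rose, 5 fell and 2 were not called, with a median log2 fold change of 1.52, and 15 rose by 2-fold or more. Across all tested genes 37.2% were called higher, and 19.2% were higher by 2-fold or more. Atf4 itself, chosen after its values were seen, was at 118 and 113 CPM after cisplatin and at 45.3 and 47.6 CPM in saline (log2 fold change 1.31, edgeR adjusted p = 5.12e-14). Atf3 was at 67.2 and 64.9 CPM against 1.41 and 1.598 CPM (5.44). Among the 5 list members that fell, the lipoprotein receptor Vldlr was at 57.8 and 59.0 against 187 and 185 CPM (-1.67).
The 5 cytosolic members whose promoters held the response element core divided into Aars and Tars, which rose, Gars and Iars, which were not called, and Yars, which had a log2 fold change of -0.32 (0.046 with library size alone). Vars, Rars, Wars and Cars were not in the promoter table. The interferon list had 13 of 13 tested genes higher, against 37.2% of all tested genes, with a median of 2.07. Cxcl10 was at 40.7 and 42.5 against 2.06 and 2.13 CPM (4.30), and Irf7 at 67.6 and 73.0 against 13.5 and 12.5 CPM (2.44).
Of 7 genes for eIF2 subunits and the kinases that phosphorylate eIF2, 6 rose and 1 fell, with a median of 0.40. The share higher was 85.7%, against 37.2% of all tested genes. The subunit gene Eif2s1 was at 138 and 130 against 76.5 and 74.3 CPM (0.83), and Eif2ak1, the heme-regulated kinase, at 40.7 and 36.9 against 61.2 and 62.1 CPM (-0.67).

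**Figure D4:**
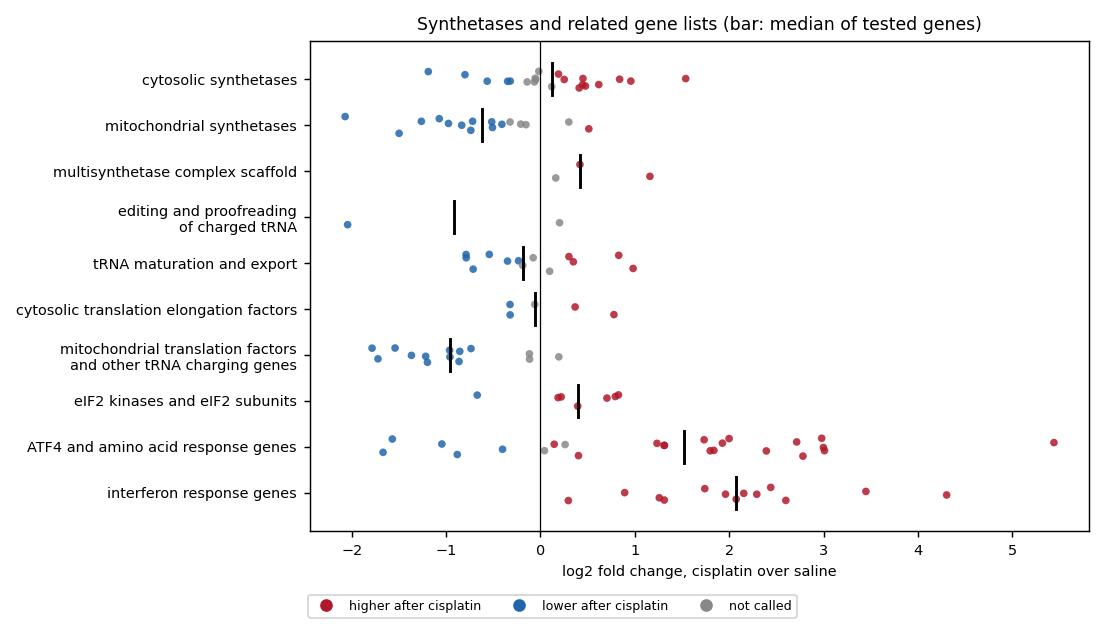
Log2 fold change, cisplatin over saline (x axis), of each tested gene in the synthetase sets and the related lists (points, coloured by call; black bars are medians). Medians run from -0.96 in the mitochondrial translation factors and -0.92 in the 2 tested editing genes to 1.52 in the ATF4 list and 2.07 in the interferon list, with cytosolic synthetases at 0.12 and mitochondrial ones at -0.62.

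Several members share exon bases with a neighbour, and the labels do not say whether the counting kept strand, so their values are less certain. By the GENCODE M21 annotation, 14 of the 37 have such an overlap. Iars2 shares 22.9% of its exon length with Rab3gap2 on the opposite strand, and Aars 14.3% with Exosc6 on the same strand. Hars and Hars2 share 195 bases with each other, head to head, and Fars2 shares 8.72% with Nrn1, which had 1 to 4 counts, and 2.001% with Lyrm4, which was also lower after cisplatin (151 and 127 counts against 714 and 1036). Mars shares 68 bases with Ddit3, which rose.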

How the data were processed

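Kidney RNA of 2 saline and 2 cisplatin libraries was sequenced as 150 nt paired reads from a directional library, per the labels' protocols. The authors deposited read counts per gene and FPKM values per gene, and the submitters' processing notes name GRCm38, bcl2fastq, TopHat2 and edgeR without versions; neither they nor the labels name the counter or its use of strand. Library groups come from the titles, and column names matched the titles. Counts were tested with edgeR 4.0.16 (filterByExpr, TMM scaling, quasi-likelihood F test, Benjamini-Hochberg adjustment over 17419 genes at 0.05), with all 4 libraries and 2 residual degrees of freedom. Scripts were tested on simulated data. The deposited FPKM served for levels per length and for ratios within a library. A floor of 3 counts was 0.115 to 0.162 CPM per library.

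The members and lists were chosen with earlier results of these data known. All 37 members are named, and per related list up to 4 genes by smallest p, or every gene of lists of 6 or fewer. Qrsl1 and Gatc are named besides, as subunits of the same enzyme as Gatb. Alternatives were other scalings, filters, DESeq2 1.42.0, edgeR's exact test, a replicate block, leaving out each library, and limma 3.58.1 on log2(FPKM + 0.1) or log2(FPKM + 1), a scale that understates the change of low genes. Tests on protein-coding genes alone, and leaving out Gars and Kars, which serve both compartments, were added after seeing the data. Positions come from GENCODE M21 by gene ID. Markers for collecting duct (5 of 8 lower, 2 higher), podocytes (5 of 5 higher), endothelium (6 of 8 higher, 1 lower), lymphocytes (2 of 5 tested higher) and erythroid cells (5 of 5 tested lower) were measured as well. Motif searches in proteins were not run. A gene of the related lists and a promoter match are not reported here.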

Additional observations from a re-analysis of the deposited data

How the results depend on the processing

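Counts and medians moved mainly with the scaling. The lower calls over all genes were 4207 with library size alone and 3804, 3784 and 3815 in the limma fits on FPKM (pseudocount 0.1, pseudocount 1, and pseudocount 1 with a minimum of 1 FPKM in 2 libraries, the order used throughout). Cytosolic members called higher were 16 with library size alone. Cytosolic members called lower were 3 with library size alone and 2, 2 and 3 on FPKM. The cytosolic median was 0.48 with library size alone, 0.24 with upper-quartile scaling, and 0.38, 0.35 and 0.35 on FPKM. Mitochondrial members called higher were 2 with library size alone, upper-quartile scaling, CPM over 1, protein-coding genes alone and each FPKM fit. The mitochondrial median was -0.25 with library size alone, -0.50 with upper-quartile scaling, -0.59 with CPM over 1, -0.64 with DESeq2, -0.57 with protein-coding genes alone, -0.34, -0.26 and -0.26 on FPKM, -0.72 with Tarsl2 grouped by its symbol, and -0.70 to -0.59 with a library left out. Lower calls in the related lists were 17 and 17 in the first FPKM fits. The cytosolic median minus the mitochondrial one ran from 0.61 to 0.78 over all fits with the grouping unchanged, and the median of all genes was 0.16 with upper-quartile scaling.

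Of 592 member log2 fold changes under alternatives, 511 kept direction and call, 25 lost the call, 16 gained it and 40 changed direction, in 10 members; 20 members kept both throughout. Changed directions with library size alone were Farsb 0.23, Gars 0.30, Iars 0.31, Lars 0.018, Qars 0.31, Sars 0.35, Yars 0.046, Pars2 0.043, Tars2 0.21, Yars2 0.16, Eef1a1 0.045, Eef1d 0.31 and Eef2 0.044. With upper-quartile scaling they were Gars 0.054, Iars 0.065, Qars 0.062, Sars 0.10 and Eef1d 0.056. On FPKM they were Farsb 0.13, 0.12 and 0.12, Gars 0.21, 0.20 and 0.20, Iars 0.22, 0.20 and 0.20, Qars 0.21, 0.21 and 0.21, Sars 0.25, 0.24 and 0.24, Tars2 0.12, 0.095 and 0.095, Yars2 0.055, 0.044 and 0.044, and Eef1d 0.21, 0.20 and 0.20. Sars was at 0.0086 with CPM over 1 and at 0.029 with protein-coding genes alone. With each library left out in turn Sars ran from -0.060 to 0.012, Iars from -0.14 to 0.030 and Eef1d from -0.13 to 0.0049. The cause was not tested. Lars, Lars2, Sars2, Vars2 and Yars were not called lower with library size alone or in any FPKM fit, nor was Yars with upper-quartile scaling (edgeR adjusted p = 0.0648).

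With the replicate number as a block, 6382 genes were called higher and 6271 lower, and the calls of all 37 members were the same (10 and 5 cytosolic, 1 and 11 mitochondrial). Same-numbered libraries did not deviate together (correlation -0.02). This rests only on the difference between the libraries of each group, so it cannot tell whether the numbers pair the samples. Depth limits the members with few counts, and the largest SEs were those of Sars2 (0.17), Pars2 (0.16) and Ears2 (0.14).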
